A study of Homo sapiens with 2 samples.

Results

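The genes described here encode components of tight junctions and desmosomes, together with E-cadherin of the adherens junction. They are TJP1, CLDN1 and OCLN (tight junction), DSG2, DSC2, DSP and PKP2 (desmosome), JUP (desmosome and adherens junction) and CDH1 (adherens junction). Every probe that the platform annotation assigned to these 9 gene symbols was taken, which gave 17 probes, and 14 of them, from 8 genes, had a value on both arrays. They belong to a table of 19665 probes with a value and 11579 named genes. The genes were chosen with their differences on these arrays known, so those differences are a description and no test was made.

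The arrays compared cultures of Huh7, an established cell line from a human hepatocellular carcinoma, after infection with a lentiviral vector (vector, 1 array) or with a lentivirus whose short hairpin RNA targets CD133 (shCD133, 1 array). All cells were Huh7 grown in the same medium, and the labels give neither the time after infection nor whether the control vector carried a hairpin of its own. With 1 array per condition no value has a replicate error, and a difference between the arrays cannot be told apart from a difference between the cultures. Values are log2 intensities as normalized by the authors, and differences are given as shCD133 minus vector on the log2 scale. PROM1, which encodes CD133, was at 13.58 on the vector array and 10.83 on the shCD133 array, a difference of -2.75.

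Tight junctions seal the space between neighbouring epithelial cells. In hepatocytes they close off the bile canaliculus from the blood side. Claudins and occludin span the membrane there, and the scaffold protein ZO-1 ties them to actin. Desmosomes are spot-like contacts in which the cadherins desmoglein and desmocollin bind across the gap, and plakoglobin, plakophilin and desmoplakin link their tails to keratin filaments. E-cadherin, bound inside the cell by catenins, holds the adherens junction together.

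Of the 8 genes with a value, 5 were at least 2-fold lower with shCD133 (DSG2, TJP1, DSP, PKP2 and CLDN1) and none was at least 2-fold higher, by the brightest probe of each gene. Among all named genes 8.26% reached this size in the lower direction and 2.08% in the higher. CDH1 and DSC2 were lower by less than 2-fold. JUP was the only one of the 8 that was higher. At a 1.5-fold threshold CDH1 joined the lower ones, which made 6 of 8 (16.3% of all named genes), and JUP was the 1 higher gene (12.3% of all named genes). Over the 14 probes the median difference was -0.92, against 0.10 over all probes with a value, 7 probes were 2-fold or more lower (6.82% of all probes) and none was 2-fold higher (1.7% of all probes). These shares come from the same contrast that led to the choice of the genes.

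**Figure D1:**
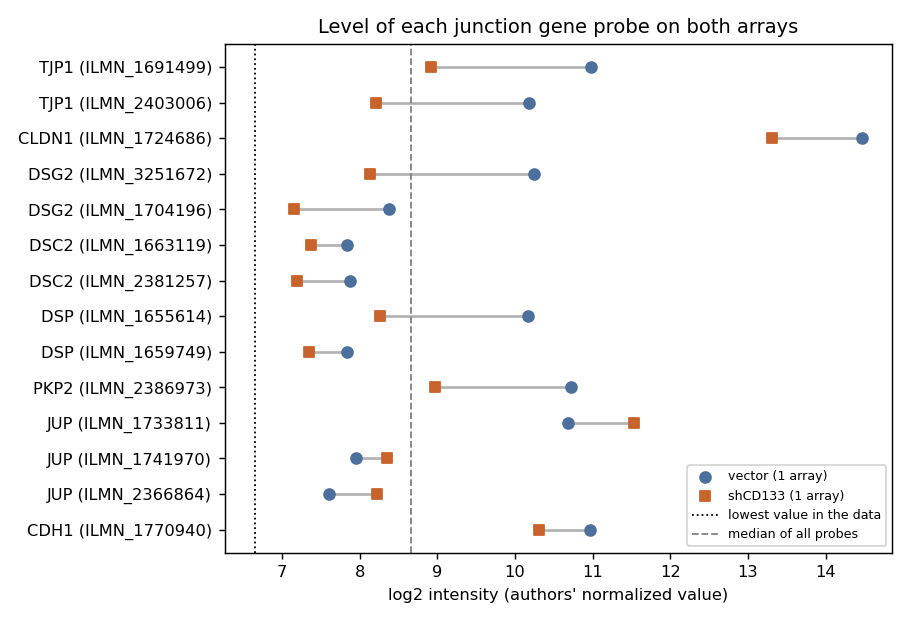
Log2 intensity (horizontal axis) of each of the 14 probes on the vector array (circles) and the shCD133 array (squares), 1 array each, with the lowest value in the data and the median of all probes as vertical lines. In 11 probes the shCD133 value lies to the left of the vector value, and in the 3 JUP probes it lies to the right.

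TJP1 encodes ZO-1, the scaffold that connects claudins and occludin to the actin cytoskeleton. Its brighter probe (ILMN_1691499, annotated to NM_003257) read 10.98 on the vector array and 8.92 on the shCD133 array. TJP1 thus differed by -2.07 there and kept 23.8% of its unlogged vector intensity. The other TJP1 probe (ILMN_2403006, annotated to NM_175610, another transcript of the gene) read 10.19 and 8.20. Its difference of -1.98 lay within 0.09 of that of the first, the closest pair among these genes. Of all named genes, 99 had a lower difference than TJP1.

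CLDN1 encodes claudin-1, a membrane protein of the sealing strands and, in liver cells, a factor for the entry of hepatitis C virus. Its probe (ILMN_1724686) read 14.47 on the vector array and 13.31 on the shCD133 array, 2.23-fold lower at a difference of -1.16. Intensities of both arrays were high on the scale, which ends at 15.6, and CLDN1 kept 44.9% of its vector intensity. OCLN, which encodes occludin, had 2 probes in the table and neither had a value on either array. The tight junction is therefore represented here by 2 of its 3 genes.

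DSG2 encodes desmoglein-2, the desmoglein that simple epithelia such as liver express. Its brighter probe (ILMN_3251672) read 10.24 with the vector and 8.13 with shCD133. This difference, -2.11, was the largest of the 8 genes, and 85 named genes had a lower one. The other DSG2 probe (ILMN_1704196), annotated to the same transcript, read 8.38 and 7.15, a difference of -1.23. Both probes were past 2-fold, but their sizes differed by 0.88, and the dimmer one ended near the lowest value in the data, 6.65, where differences are compressed.

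DSC2 encodes desmocollin-2, the partner cadherin of desmoglein-2. One of its probes (ILMN_1663119, NM_004949) read 7.84 and 7.37, a difference of -0.47. The other (ILMN_2381257, NM_024422) read 7.88 and 7.20, a difference of -0.69. All 4 DSC2 values lay below 8.66, the median of all probes, in a range where signal could not be told from background without detection calls.

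DSP encodes desmoplakin, the plaque protein that anchors keratin filaments. Its brighter probe (ILMN_1655614, NM_001008844) read 10.17 on the vector array and 8.26 on the shCD133 array, 3.76-fold lower at a difference of -1.91. A dimmer probe annotated to the same transcript (ILMN_1659749) read 7.84 and 7.35, a difference of -0.49. The DSP probes thus had the same direction and sizes 1.42 apart, the widest gap among these genes, and their mean was -1.20. Both values of the dimmer probe lay below 8.66, the median of all probes. Signal could not be told from background there without detection calls, and differences are compressed. The remaining DSP probe (ILMN_1677032, NM_004415) had no value.

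PKP2 encodes plakophilin-2, an armadillo-repeat protein that binds desmoplakin in the plaque. Its probe (ILMN_2386973) read 10.72 on the vector array and 8.97 on the other, 3.36-fold lower at a difference of -1.75. It was the only PKP2 probe, so no other probe bears on this value.

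JUP encodes plakoglobin (gamma-catenin), an armadillo protein shared by desmosomes and adherens junctions and a close relative of beta-catenin. Its brightest probe (ILMN_1733811) read 10.68 on the vector array and 11.53 on the shCD133 array, a difference of 0.85 or 1.80-fold higher. The other JUP probes read 7.95 and 8.35 (ILMN_1741970, difference 0.40) and 7.61 and 8.22 (ILMN_2366864, difference 0.62). All 3 probes were higher with shCD133, none by 2-fold, and 448 named genes had a higher difference than JUP. All values of the dimmer JUP probes lay below 8.66, the median of all probes. At such levels signal could not be told from background without detection calls.

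CDH1 encodes E-cadherin, the main adhesion molecule of epithelial adherens junctions. Its probe (ILMN_1770940) read 10.97 on the vector array and 10.31 on the shCD133 array, 1.58-fold lower at a difference of -0.66. CDH1 kept 63.3% of its unlogged vector intensity.

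**Figure D2:**
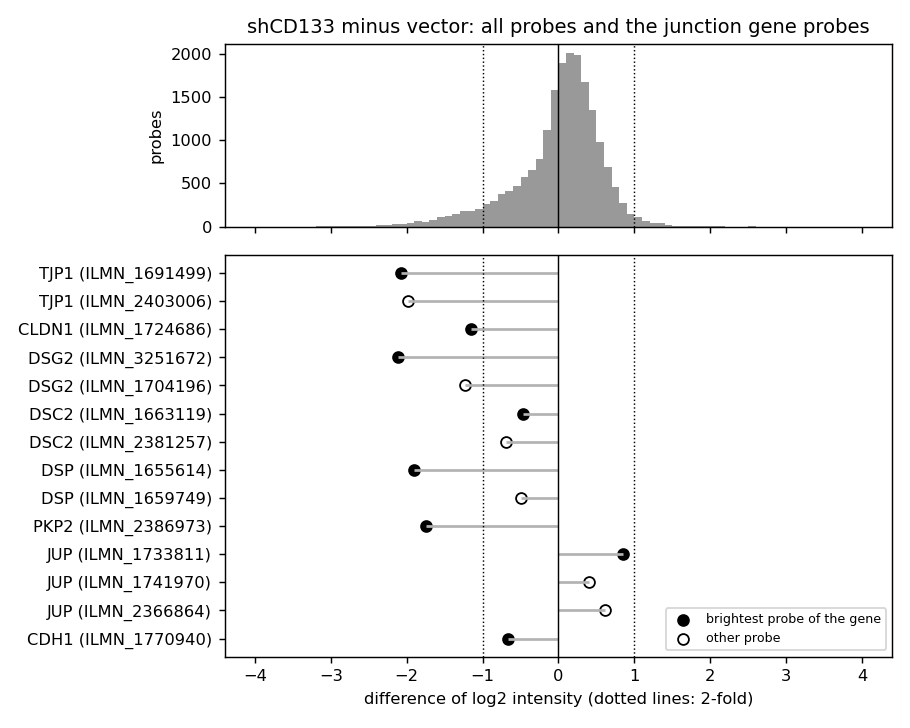
Top, number of probes (vertical axis) by difference of log2 intensity, shCD133 minus vector, over all 19665 probes with a value. Bottom, the same difference for each of the 14 probes, with filled points for the brightest probe of a gene, open points for its other probes and dotted lines at 2-fold. DSG2, TJP1, DSP, PKP2 and CLDN1 have their brightest probe to the left of the 2-fold line, and the JUP probes lie between 0.40 and 0.85.

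Without replicate arrays, an error could be taken only from how far probes of the same gene disagreed. Over 2907 genes with more than 1 probe its SD was 0.33 for a single probe's difference. It was 0.40 where the dimmer of the 2 probes had a mean level under 8, and 0.30 at levels from 8 to 10. This spread leaves out variation between cultures.

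Promoter sequences from the RefSeq promoter table (GRCh38.p14) are shown for DSG2, TJP1 and DSP, which were lower together with the largest differences among genes with an entry. JUP is shown as the gene that was higher. CLDN1, lower by a smaller difference, has an entry without an E-box and is not shown. TJP1 has 4 annotated starts in the table and JUP 2, and the start whose window holds an E-box is shown. Their other windows hold none, so the choice of windows shown favours the E-box. Each window runs from 250 bases before to 50 after an annotated start, 5′ to 3′ on the gene's strand. Capitals mark CAGGTG or its reverse complement CACCTG, the E-box form that the SNAIL and ZEB repressors of CDH1 are known to bind.
TJP1, chr15:29969000-29969299, minus strand: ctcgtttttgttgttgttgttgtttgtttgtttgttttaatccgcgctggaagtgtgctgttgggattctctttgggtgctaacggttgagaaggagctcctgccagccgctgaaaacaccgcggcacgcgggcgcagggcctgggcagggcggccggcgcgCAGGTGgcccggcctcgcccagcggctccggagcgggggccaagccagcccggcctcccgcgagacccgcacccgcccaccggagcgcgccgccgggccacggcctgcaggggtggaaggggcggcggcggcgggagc
DSG2, chr18:31497927-31498226, plus strand: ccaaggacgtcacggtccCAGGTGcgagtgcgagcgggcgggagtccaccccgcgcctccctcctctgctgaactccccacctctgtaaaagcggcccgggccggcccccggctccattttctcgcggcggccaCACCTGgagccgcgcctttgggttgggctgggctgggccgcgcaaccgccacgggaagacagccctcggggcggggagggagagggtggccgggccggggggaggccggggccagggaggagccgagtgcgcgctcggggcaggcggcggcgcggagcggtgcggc
DSP, chr6:7541421-7541720, plus strand: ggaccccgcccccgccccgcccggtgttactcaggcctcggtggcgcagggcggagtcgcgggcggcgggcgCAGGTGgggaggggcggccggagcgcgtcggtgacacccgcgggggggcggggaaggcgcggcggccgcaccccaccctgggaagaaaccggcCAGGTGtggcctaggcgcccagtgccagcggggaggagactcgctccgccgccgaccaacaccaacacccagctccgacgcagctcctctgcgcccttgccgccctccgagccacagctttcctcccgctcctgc
JUP, chr17:41785927-41786226, minus strand: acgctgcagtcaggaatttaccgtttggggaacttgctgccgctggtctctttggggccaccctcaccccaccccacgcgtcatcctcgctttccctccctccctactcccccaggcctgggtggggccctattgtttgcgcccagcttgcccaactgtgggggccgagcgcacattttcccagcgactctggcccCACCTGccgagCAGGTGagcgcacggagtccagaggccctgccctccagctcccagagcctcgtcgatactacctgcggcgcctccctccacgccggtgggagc
The E-box occurred once in the TJP1 window shown, and there were 2 matches each in DSG2, DSP and JUP. The table held 13 windows for 7 of the genes, several with more than 1 start, and 7 windows held a match, against 20.6% of all 35116 windows. The windows with a match had a GC content of 60.7% to 77%, against a median of 58.7% over all windows. Both OCLN windows held a match, but they overlap each other and OCLN had no expression value. The part of GC content in the matches was not tested. CLDN1, which was lower, had no match, whereas JUP, which was higher, had 2 in the window shown. The STAT motif TTCNNNGAA, a palindrome sought because the series concerns STAT3, was found in 1 of the 13 windows, a DSC2 start, against 7.66% of all windows. The palindrome AACCGGTT, bound by Grainyhead-like factors, was found in none of the 13 and in 0.134% of all. No match overlapped a match of another motif in these windows, and which start Huh7 cells use was not analysed here. CDH1 and PKP2 had no entry.

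DSG2 and DSC2 lie in the desmosomal cadherin cluster on chromosome 18. In the RefSeq order of protein-coding genes DSC1, DSG1, DSG4 and DSG3 stand between them, and none of these 4 had a value. DSC3, next to DSC2, read 7.49 and 7.37, a difference of -0.12. TTR, the transthyretin gene next to DSG2 on its other side, read 11.65 and 11.99, a difference of 0.35, and so lay on the opposite side of 0 from DSG2. CDH2, which encodes N-cadherin and follows DSC3, differed by -0.99. On both arrays together the named genes with log2 values nearest to those of DSG2 were MARF1, CD302 and USP14, each 0.05 away in Euclidean distance over the 2 arrays.

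Of 57 other tight junction genes, 37 had a value, of which 4 were past 2-fold in the lower direction and 1 in the higher (8.26% and 2.08% of all named genes), and the median was 0.22 against 0.11 over all named genes. CXADR, the coxsackievirus and adenovirus receptor of the junction, read 10.90 on the vector array and 8.38 on the shCD133 array, a difference of -2.52. The scaffold genes MPDZ (-1.50) and PALS1 (-1.03) and the claudin gene CLDN12 (-1.23) were the other lower ones. PARD6G, a polarity adaptor, was higher by 1.12 on its brighter probe and by 0.18 on its other probe. Among claudins other than CLDN1, 12 had a value, 9 of these above 0 and 3 below, where 59.2% of all named genes lay above 0. CLDN12 was the only one past 2-fold, in the lower direction (8.26% of all named genes). CLDN7, CLDN10, CLDN11, CLDN16, CLDN19, CLDN20 and CLDN25 read below 8 on the vector array. Signal could not be told from background at such levels without detection calls.

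Among 10 other desmosome genes 4 had a value, and none was 2-fold different (8.26% lower and 2.08% higher of all named genes). PPL (periplakin) differed by 0.32, DSC3 by -0.12, PKP3 (plakophilin-3) by -0.06 and PERP, a tetraspan membrane protein of desmosomes, by 0.03. DSC3 (7.49 and 7.37), PKP3 (8.04 and 7.98) and PERP (8.43 and 8.46) lay below 8.66, the median of all probes. In the tenth of genes by mean level that holds DSC3, 1.12% were at least 2-fold lower. Differences of dim probes are compressed, so these small ones do not show that the genes were unchanged. The 16 measured genes of the other adherens junction list had a median of -0.13. None of the 16 was 2-fold different (8.26% lower and 2.08% higher of all named genes). That count of lower genes was 1 after centring or background subtraction and 2 after removal of the level trend. At a 1.5-fold threshold 5 of the 16 were lower and 1 was higher (16.3% and 12.3% of all named genes). The largest differences were those of the cadherin genes CDH2 (-0.99) and CDH6 (-0.80), of PKP4, an armadillo protein of the p120-catenin family (-0.89), and of the beta-catenin inhibitor CTNNBIP1 (0.81). CTNNB1, which encodes beta-catenin and was named after its value was seen as the relative of JUP, differed by -0.13, and its 3 probes ranged from -0.20 to 0.01.

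Keratins of simple epithelia, the filaments that desmoplakin anchors, had a median of 0.38 over 4 measured genes. None of the 4 was 2-fold different (8.26% lower and 2.08% higher of all named genes). KRT8 read 14.51 and 14.42, a difference of -0.09. KRT23 (0.51), KRT19 (0.45) and KRT18 (0.31) were higher by less than 2-fold, and both values of KRT18 and of KRT23 lay below 8. No keratin with a value was lower by a size like that of the brighter DSP probe. The mesenchymal list holds genes used as markers when epithelial cells lose junctions. Its median was 0.41 over 9 measured genes, 8 of them above 0 (59.2% of all named genes). None of them was 2-fold different (8.26% lower and 2.08% higher of all named genes). The list does not include CDH2 (N-cadherin, -0.99) or ZEB2 (-0.67), which are given with other lists and were lower. Within the mesenchymal list COL1A2 (0.94), S100A4 (0.87), ITGA5 (0.78) and COL1A1 (0.74) differed the most. The other measured genes of the list were TGFBI (0.41), TAGLN (0.21), FN1 (0.12), VIM (0.01) and SPARC (-0.02). Both values of COL1A1 (7.77 and 8.52), FN1 (8.16 and 8.28) and SPARC (7.80 and 7.79) lay below 8.66, the median of all probes.

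Transcription factors known to act on epithelial junction genes had 9 measured members of 18. ELF3, an epithelial ETS factor, read 9.92 on the vector array and 11.14 on the shCD133 array, a difference of 1.22. With the trend on gene length removed, ELF3 was no longer 2-fold higher. TCF4, an E-box binding factor, differed by -1.03, TCF3 by 0.88 and the liver factor FOXA1 by -0.78. Among the E-box repressors, ZEB2 read 8.06 and 7.39, a difference of -0.67, and SNAI2 read 7.34 and 7.35, both near the lower end of the scale. SNAI1, ZEB1, TWIST1 and GRHL2 had no value on either array and were not analysed here. ZEB2 and SNAI2 were named after their values were seen.

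**Figure D3:**
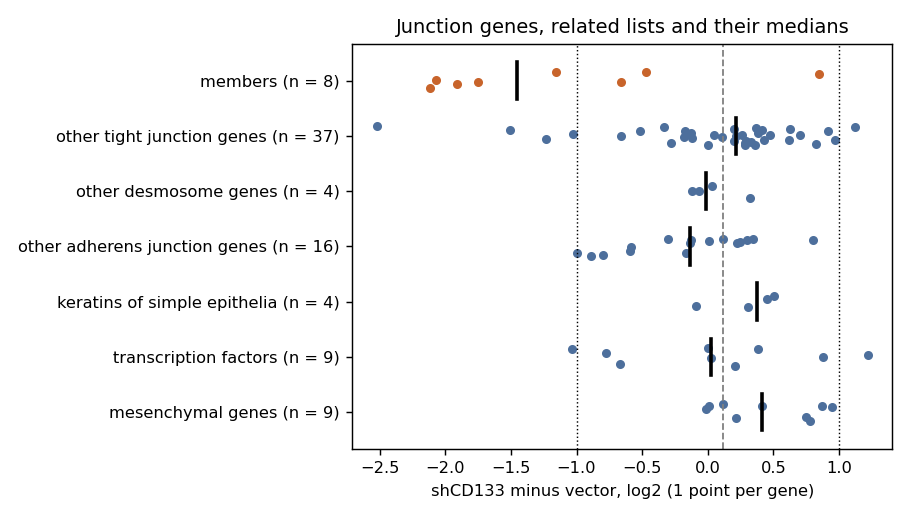
Difference of log2 intensity, shCD133 minus vector (horizontal axis), with 1 point per gene by its brightest probe, for the 8 junction genes described here (members) and 6 related lists. Black bars are list medians, the dashed line is the median of all named genes (0.11) and dotted lines mark 2-fold. The junction genes have a median of -1.45 and the medians of the related lists lie between -0.13 and 0.41.

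Genes lower with shCD133 were longer on these arrays, and the 8 junction genes had a median genomic length of 47.9 kb against 27.4 kb for all named genes. In the tenth of genes with the greatest genomic length, which holds TJP1 (270 kb), 22.0% were at least 2-fold lower. The corresponding share was 17.8% in the bin of PKP2 (106 kb) and CDH1 (98.2 kb) and 10.2% in the bin of DSG2 (50.8 kb), DSP (45.0 kb) and DSC2 (43.6 kb). CLDN1 is short (16.7 kb), and its bin had 3.37% lower and a median difference of 0.24. JUP (32.1 kb) fell in a bin with a median of 0.11. Spearman's rho of the difference with length was -0.34 over all named genes, which are not independent of each other. With the length trend removed, 5 of the 8 genes remained at least 2-fold lower, against 923 of the 11571 named genes with a length. The 5 differed by -2.08 (DSG2), -1.90 (DSP), -1.81 (TJP1), -1.58 (PKP2) and -1.35 (CLDN1). This alternative was chosen after the data had been seen, and the part of gene length in these differences was not otherwise tested.

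**Figure D4:**
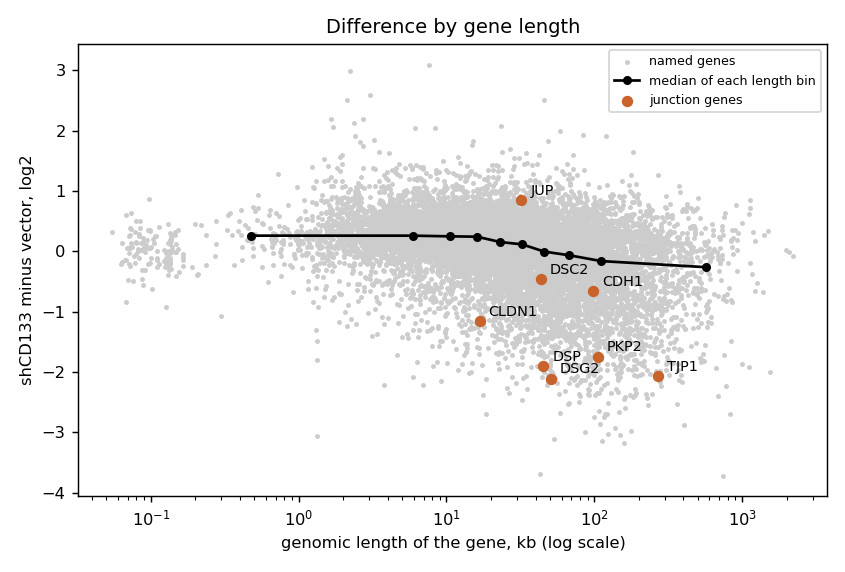
Difference of log2 intensity, shCD133 minus vector (vertical axis), by genomic length in kb on a log scale, for all named genes (grey), the 8 junction genes (labelled) and the median of each of 10 length bins (black, drawn at the geometric middle of the bin). The bin medians go from 0.26 for the shortest genes to -0.26 for the longest, and DSG2, TJP1, DSP, PKP2 and CLDN1 lie below the median of their bins by more than 1.

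The cells carried the markers of their line. Of 10 hepatocyte and hepatocellular carcinoma markers 9 had a value, from 11.65 (TTR) to 15.48 (ALB) on the vector array, and HNF4A had none. Summed unlogged and returned to log2, they came to 17.45 on the vector array and 17.30 on the shCD133 array. Single markers differed more than this sum, with APOA2 at -1.81, FGB at -1.32, APOA1 at 0.63 and TTR at 0.35. Of the fibroblast list 5 of 6 had a value (summed 13.86 and 14.11), of the leukocyte list 3 of 6 (13.02 and 12.98), of the cholangiocyte list 2 of 3 (12.74 and 13.12) and of the endothelial list 1 of 4 (7.64 and 7.48). PTPRC and CD3E of the leukocyte list had no value on either array, but CD14 read 8.32 and 9.92, a difference of 1.60. LYZ read 12.81 and 12.64 on its brighter probe, and its other probe differed by 1.51, while CD68 differed by -0.09. In the fibroblast list LUM read 13.46 and 13.45, COL1A2 11.55 and 12.50, COL1A1 differed by 0.74, DCN by 0.07 and PDGFRB by 0.03, and COL3A1 had no value. CDH5, VWF and KDR of the endothelial list had none and PECAM1 differed by -0.16, and of the cholangiocyte list KRT19 differed by 0.45 and SOX9 by 0.23. The part of other cell types in the junction gene differences was not tested. In RNA from a whole culture, fewer cells that express a gene and less RNA per cell cannot be told apart.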

How the data were processed

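Biotin-labelled cRNA of 2 Huh7 cultures was read on Illumina bead arrays, per the labels' protocols. The authors deposited log2 intensities, and the base was read as 2 from their range, 6.65 to 15.6. GenomeStudio 2011.1 is named in the submitters' processing notes, without its role. Once sorted, the arrays' values differed by at most 0.00044, as after quantile normalization, which forces both arrays to the same distribution. Of 47323 probes, 27658 were null on both arrays, and no source used here gives the filter. No background subtraction was seen, so differences of dim probes are compressed. A table of non-normalized signals has 4 value columns that match neither sample's labels, and it was not used, so there were no detection calls.

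Probes were named from a platform annotation of 2016. It gives 1 gene symbol for 15205 measured probes, several for 2 and none for 4458, and 15197 were found by gene identifier in RefSeq (GRCh38.p14). A gene took its probe with the highest mean. Trends were fitted by loess with a span of 0.3 (statsmodels 0.14.6, Python 3.11.15). Simulated arrays with known differences and no added trend were used to check the gene values, the counts and the level fit. The length fit was not checked in this way. Precision is limited by 1 array per group, and no p-value was computed. The genes and lists were chosen with earlier results of these data known. All probes of the 9 genes are named, and in each list the genes at least 2-fold different plus the 4 largest differences, with PROM1 and the 3 genes nearest to DSG2. CTNNB1, ZEB2, SNAI2, LUM, the dim claudins, the rest of the mesenchymal list, the cadherin cluster's neighbours and genes without a value are named outside this rule. Alternatives were another threshold, the mean over probes, centring, removal of the trends with level and length, background subtraction and a level minimum.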

Additional observations from a re-analysis of the deposited data

How the results depend on the processing

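No paired analysis was possible because each group had 1 array. The 8 genes kept their direction under every alternative run, and DSG2, TJP1, DSP, PKP2 and CLDN1 stayed at least 2-fold lower under each. At a 1.5-fold threshold 6 were lower and 1 was higher. The median over the 14 probes was -1.36 after background subtraction and -1.75 over the 9 probes with a mean level of at least 8. With the mean over probes DSP differed by -1.20 and DSG2 by -1.67. With background subtracted DSP differed by -2.35, DSG2 by -2.63 and DSC2 by -0.98. In the 6 related lists together 79 genes had a value, of which 5 were at least 2-fold lower and 2 higher (8.26% and 2.08% of all named genes). With background subtracted there were 8 lower and 8 higher (1532 and 727 of all 11579 named genes). At 1.5-fold there were 13 lower and 14 higher (16.3% and 12.3% of all named genes). In the adherens junction list the lower count, 0, became 1 with centring or background subtraction and 2 with the level trend removed. At 1.5-fold 5 of its 16 measured genes were lower and 1 was higher (16.3% and 12.3% of all named genes). Over the 6 lists the higher count was 1 with the mean over probes and 1 with the trend on level removed (223 and 133 of all named genes). With the length trend removed, 4 genes of the 6 lists were lower and 3 higher (923 and 190 of all named genes). The other tight junction genes then had 3 lower and 3 higher. Over all named genes 956 were lower and 241 higher. The counts were 1532 and 727 with background subtracted and 1883 and 1423 at 1.5-fold, and 1272 and 133 with the level trend removed. Centring moved the median named gene from 0.11 to 0.01, and JUP then differed by 0.74. Subtraction widens the differences of dim probes by construction, and the mean over probes brings in dimmer probes. The cause of the other changes was not tested. Without detection calls signal could not be told from background in dim probes.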
